A study of Mus musculus with 4 samples.

Results

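Genes for enzymes that write and erase histone methylation and acetylation were followed in mouse T helper 2 (Th2) cells grown with HU-308 or with its solvent DMSO. They were taken by gene name: protein-coding genes named Kdm, Kmt, Setd or Setdb, Hdac, Kat or Sirt with a number, and Ezh1 and Ezh2. The rule found 64 of 54532 gene rows, made up of 20 SET-domain proteins, 18 lysine demethylases, 8 lysine acetyltransferases, 11 histone deacetylases (HDACs) and 7 sirtuins. Enzymes with other names, such as Crebbp, Ep300, Dot1l and the Prmt arginine methyltransferases, fall outside the rule and are given as related lists at the end.

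The 4 RNA-seq libraries, 2 with HU-308 and 2 with DMSO, all came from wild-type cells labelled as belonging to bleomycin-induced systemic sclerosis (SSc), a model of skin and lung fibrosis. HU-308 is a man-made agonist of cannabinoid receptor 2, which Cnr2 encodes, and no library lacks Cnr2. Naive CD4+ T cells were polarised to Th2, restimulated on day 4 with beads carrying antibodies to CD3 and CD28, and collected 12 h later. Whether the replicates were separate animals or cultures is not in the labels, and the p-values below thus measure library-to-library spread that may be technical.

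A histone lysine is methylated by a SET-domain enzyme (or by Dot1l) and demethylated by an amine oxidase or a Jumonji (JmjC) enzyme, which uses oxygen and 2-oxoglutarate; acetyl groups are added by lysine acetyltransferases and removed by zinc-dependent HDACs or NAD-dependent sirtuins. Methylation of H3K4 and acetylation accompany active genes. Methylation of H3K9 and H3K27, and of H4K20 beyond the first methyl group, accompanies silencing and compaction. In T helper cells Ezh2 keeps the genes of alternative lineages silent and Kmt2a helps to maintain the Th2 programme.

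The HU-308 libraries held 16145298 and 16263077 counts and the DMSO libraries 18041457 and 20479254, with 20525 to 21319 genes detected in each. All 7 CD4+ T cell markers examined were expressed, with a summed level of 2017 and 2397 CPM (counts scaled to a common depth) in HU-308 cells and 1733 and 2101 CPM in DMSO cells. The 5 Th2 markers Gata3, Il4, Il13, Ccr4 and Il1rl1 were also read in every library and summed to 963 and 1060 CPM in HU-308 cells and 1338 and 1568 CPM in DMSO cells. Of these, the cytokine gene Il13 was called lower, at 2.44 and 1.48 CPM in HU-308 cells and 20.5 and 30.1 CPM in DMSO cells, with an adjusted edgeR p of 0.0389, and the lineage factor Gata3, with 384.6 and 302.4 CPM in HU-308 cells and 492.6 and 486.3 CPM in DMSO cells, was not called by edgeR. In all, 4 of the 5 were lower in both HU-308 libraries and had an unadjusted edgeR p under 0.05, the median log2 fold change of the 5 was -0.86, and DESeq2 called Il13, Il4 and Ccr4 lower. The part of these differences in the results below was not tested. Markers of natural killer cells, neutrophils and erythroid cells summed to at most 1.78 CPM in any library, those of B cells to 2.02 to 3.98 CPM, of fibroblasts to 3.06 to 3.68 CPM, of CD8 T cells to 12.1 to 13.8 CPM and of dendritic cells to 5.31 to 14.7 CPM. The macrophage list summed to 26.5 and 59.5 CPM in HU-308 cells and 37.7 and 74.1 CPM in DMSO cells, nearly all of it Adgre1, while Lyz2 had no read and Csf1r 1 read in 4 libraries; the part of these markers in the results was not tested. In bulk RNA, fewer cells of a type and less RNA per cell cannot be told apart.

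No enzyme gene passed the unpaired test between HU-308 and DMSO cells. Of the 64 genes, 62 had enough reads to be tested, and 0 of them reached an adjusted p of 0.05 in edgeR's quasi-likelihood test, whose smallest adjusted p among them was 0.127. Over all 14316 genes tested, 0.0838% were called higher with HU-308 and 0.231% lower, so a count of 0 among 62 is close to that background. DESeq2, which called 5.68% of all genes, also called 0 of the 62. Limma-voom, which called 0.356% of all genes, called 0 of them too. There were 3401 genes of like level, between the enzyme genes' lower and upper quartile of CPM. Of these, edgeR called 3 higher and 14 lower, and DESeq2 called 295. Limma on FPKM values (fragments per kilobase of gene length, scaled to depth) called 0 of all genes, so its count among the 62 cannot be read. Adding the library number to the edgeR fit called 21 of the 62 (33.9%, against 33.8% of all genes). No label says what a number shares, so that fit was not taken as the main one. At an unadjusted edgeR p under 0.05 there were 5 genes higher with HU-308 (8.06%, against 8.79% of all genes) and 3 lower (4.84%, against 9.97% of all genes). Of the 3401 genes of like level, 298 were higher and 519 lower at that p. Both HU-308 libraries lay above both DMSO libraries for 18 genes (29.0%, against 25.9% of all genes) and below both for 14 (22.6%, against 25.4%). Of the 3401 genes of like level, 744 lay above and 1158 below in this way.

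The fold changes were small. Of the 62 genes, 36 were on the higher side with HU-308 (58.1%, against 52.1% of all genes) and 26 on the lower side. With library size alone as the scale, which raised the median of all genes to 0.14, the split was 46 and 16, and 62.5% of all genes were on the higher side. The median log2 fold change was 0.03 against 0.02 for all genes, and the range ran from -0.68 for Kdm6b to 0.90 for Hdac11. Of the 3401 genes of like level, 1515 were on the higher side and 1886 on the lower side, with a median of -0.05. The median size of the log2 fold change was 0.20 among the enzyme genes, 0.24 among the 3401 genes of like level and 0.30 among all genes. None of the 62 exceeded 1 in size, against 8.17% of all genes and 3.2% of the 3401 genes whose level lay within the middle of the enzyme genes' own range, from their lower to their upper quartile of CPM. For 53 of the 62 (85.5%) the whole 95% interval lay within a log2 fold change of 1 in either direction, which held for 53.6% of all genes and 82.6% of those of like level. The narrow intervals of the enzyme genes were close to those of other genes at like levels.

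**Figure D1:**
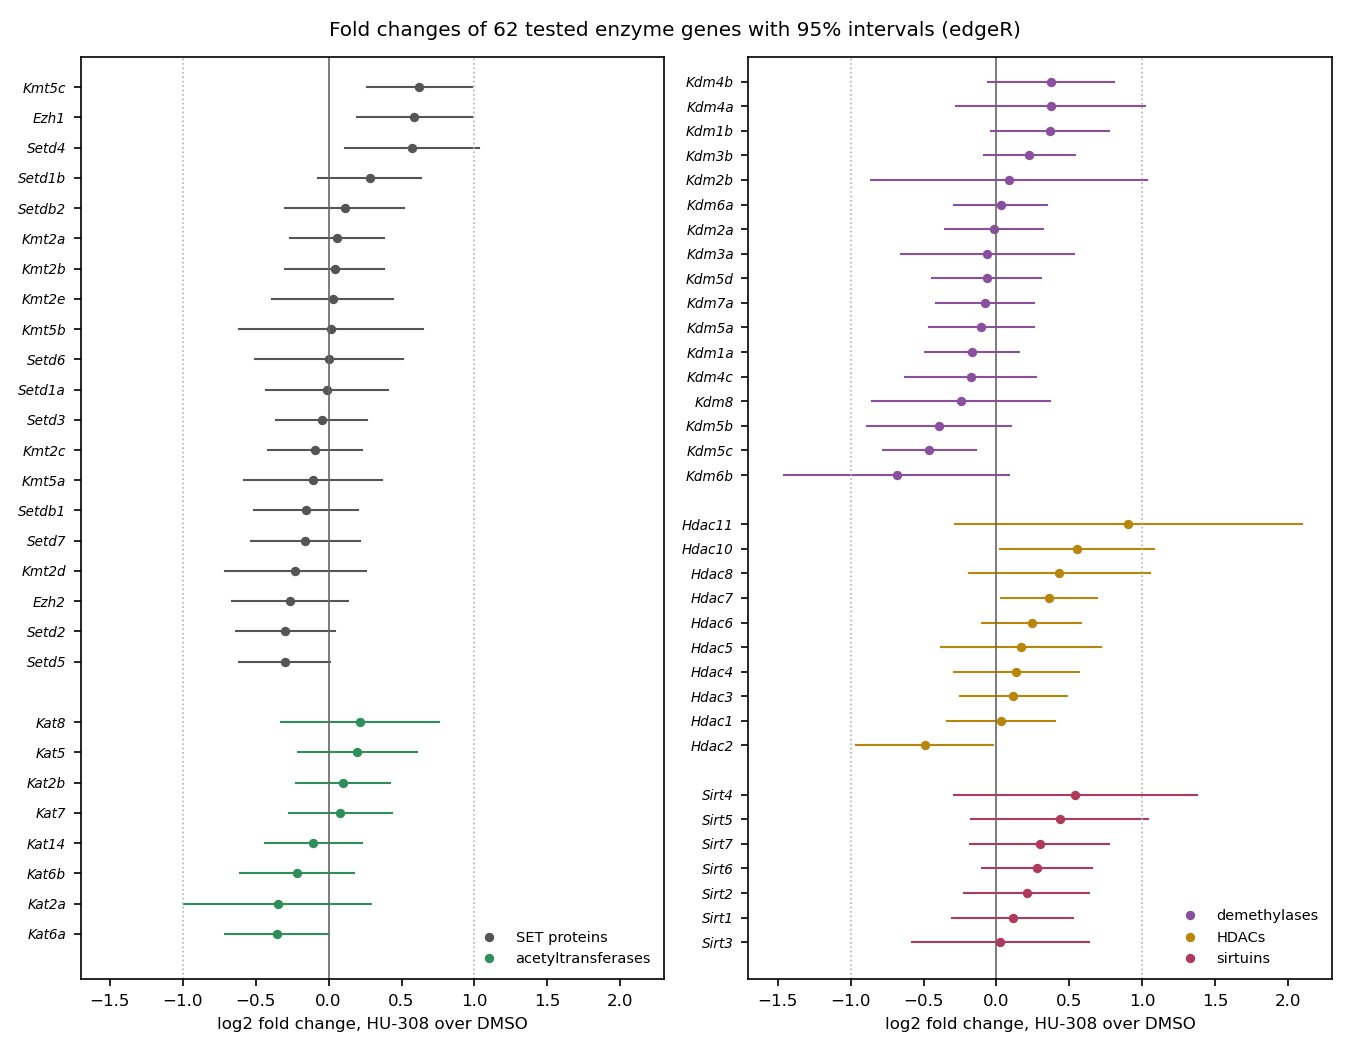
Log2 fold change of each of the 62 tested enzyme genes (x axis, HU-308 over DMSO, edgeR), with points for the estimate and lines for the 95% interval, grouped by class. Only 9 lines reach beyond the dotted lines at -1 and 1, and all 7 sirtuin points and 9 of 10 HDAC points lie to the right of 0.

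Levels between genes were compared per length, on the authors' FPKM scale. The 64 genes spanned a wide range, from Ezh2, the H3K27 methyltransferase of Polycomb repressive complex 2 (PRC2), at 56.1 and 46.2 FPKM in HU-308 cells and 66.3 and 57.2 FPKM in DMSO cells, to Hdac9 at 0.0242 and 0.0556 FPKM in HU-308 cells and 0.00783 and 0.00347 FPKM in DMSO cells. Behind Ezh2 came Hdac1 at 55.0 and 46.1 FPKM in HU-308 cells and 52.6 and 46.9 FPKM in DMSO cells, then Kat6a, Kmt2a and Kdm3a. The ranges of Ezh2 and Hdac1 overlapped within the HU-308 libraries, so their order there lay within the spread. Summed over all 64 genes, the level was 836 and 820 FPKM in HU-308 cells and 858 and 839 FPKM in DMSO cells, and these genes took 0.694% and 0.704% of counts with HU-308 and 0.666% and 0.676% with DMSO. Hdac9, Kdm4d and Hdac11 stayed under 1 FPKM in every library, and the next lowest, Sirt5, had 1.31 and 1.70 FPKM in HU-308 cells and 1.08 and 1.16 FPKM in DMSO cells.

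**Figure D2:**
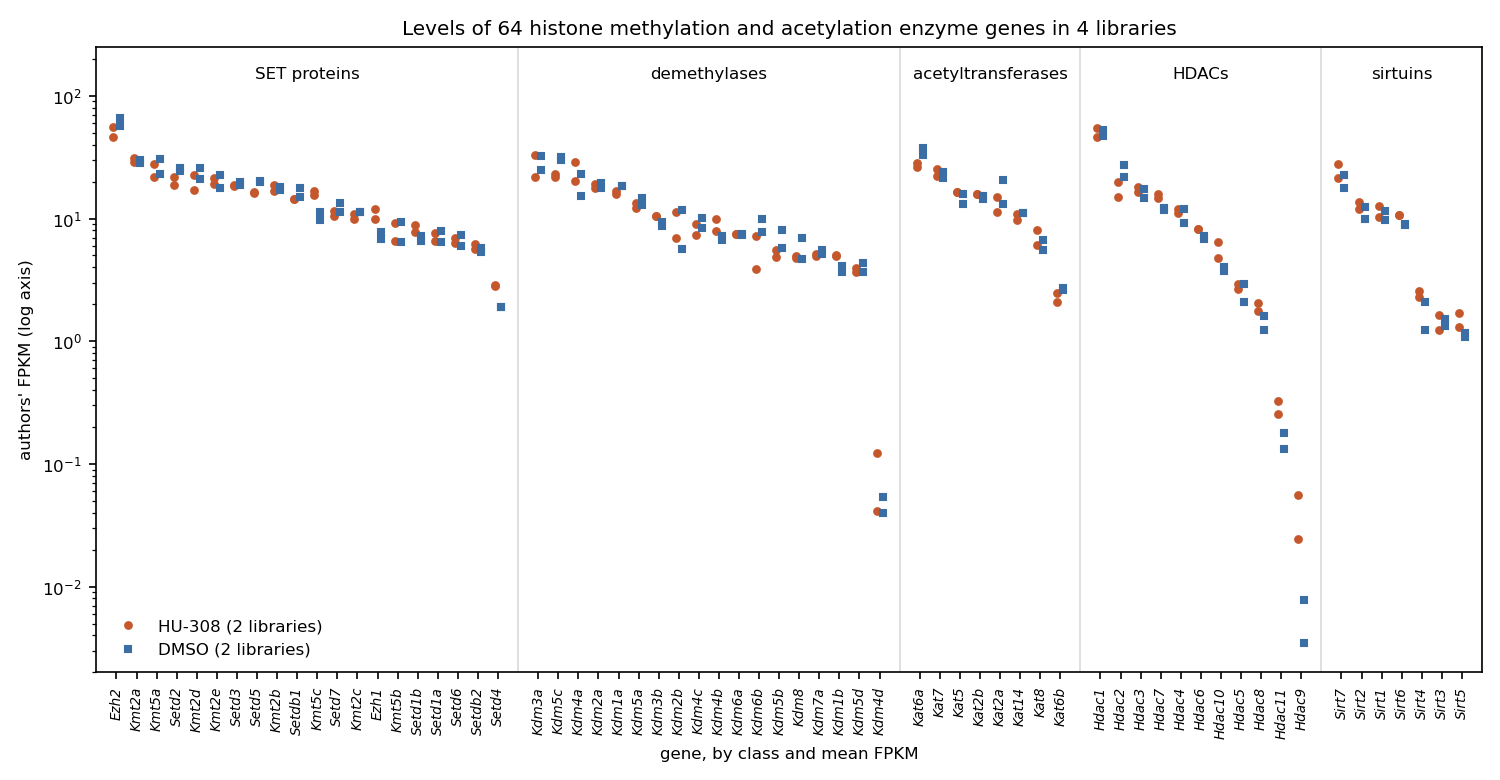
Level of each of the 64 enzyme genes in each library (y axis, authors' FPKM, log scale), ordered within 5 classes by mean level, with circles for the 2 HU-308 libraries and squares for the 2 DMSO libraries. Ezh2 and Hdac1 sit highest in their classes, Kdm4d, Hdac11 and Hdac9 sit far below the rest, and circles and squares lie close together for most genes.

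Among the methyltransferases, the 3 smallest unadjusted p-values of all 62 genes included Kmt5c and Ezh1. Their promoters are printed with those of Kdm5c, the demethylase gene with the other of these 3 p-values, and of Ezh2, the paralogue of Ezh1, from RefSeq on GRCm38.p6, which listed 52 of the 64 genes. Each runs 5′ to 3′ on the gene's strand across the annotated start of transcription, and capitals mark a match to an E2F motif (TTTCCCGC, TTTCGCGC, TTTGCCGC or TTTGGCGC) or to the NF-Y motif CCAAT on either strand.
Kmt5c: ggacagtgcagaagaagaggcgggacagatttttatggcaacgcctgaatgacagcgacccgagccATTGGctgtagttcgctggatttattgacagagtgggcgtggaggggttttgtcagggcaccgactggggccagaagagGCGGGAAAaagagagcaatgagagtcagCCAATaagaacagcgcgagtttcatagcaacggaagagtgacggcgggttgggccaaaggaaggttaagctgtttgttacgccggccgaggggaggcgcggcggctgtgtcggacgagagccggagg
Ezh1: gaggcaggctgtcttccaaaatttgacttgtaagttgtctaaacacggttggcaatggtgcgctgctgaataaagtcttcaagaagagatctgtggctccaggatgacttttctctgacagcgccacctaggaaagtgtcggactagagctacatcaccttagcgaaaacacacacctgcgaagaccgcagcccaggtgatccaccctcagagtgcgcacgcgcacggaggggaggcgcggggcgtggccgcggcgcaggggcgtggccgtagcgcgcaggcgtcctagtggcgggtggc
Kdm5c: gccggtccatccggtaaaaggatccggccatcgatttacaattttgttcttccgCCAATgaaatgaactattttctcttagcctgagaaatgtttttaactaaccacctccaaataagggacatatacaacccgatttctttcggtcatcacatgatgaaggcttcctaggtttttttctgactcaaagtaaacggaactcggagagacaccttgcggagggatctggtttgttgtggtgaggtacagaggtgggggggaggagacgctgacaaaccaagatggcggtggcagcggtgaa
Ezh2: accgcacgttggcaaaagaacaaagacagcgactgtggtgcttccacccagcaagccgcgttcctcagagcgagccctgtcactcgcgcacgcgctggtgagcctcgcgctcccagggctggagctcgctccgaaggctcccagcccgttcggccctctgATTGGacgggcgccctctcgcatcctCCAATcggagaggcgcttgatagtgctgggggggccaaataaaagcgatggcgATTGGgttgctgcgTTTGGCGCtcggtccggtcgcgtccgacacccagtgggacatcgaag
The Kmt5c promoter (chr7:4739877-4740176, plus strand) held 1 E2F match and 2 NF-Y matches, and that of Ezh2 (chr6:47594981-47595280, minus strand) 1 E2F match and 3 NF-Y matches. The Ezh1 promoter (chr11:101226414-101226713, minus strand) held neither, and that of Kdm5c (chrX:152232977-152233276, plus strand) 1 NF-Y match. Counts took only the first listed promoter of each gene. Of the 52, 4 (7.69%) held an E2F match, against 4.36% of tested protein-coding genes and 2.32% of all genes with a listed promoter of this length. An NF-Y match was held by 24 (46.2%), against 39.1% and 37.9%. The median number of CpG dinucleotides per 300 bases was 20.5 in the enzyme genes, 21 in tested protein-coding genes and 7 in all genes listed. A match is a run of letters and does not show that a factor binds there.

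For H4K20, Kmt5a adds the first methyl group in dividing cells, and Kmt5b and Kmt5c add the next ones, which mark compacted chromatin. Kmt5c (ENSMUSG00000059851, chr7:4740115-4747514, GRCm38) had 67.3 and 62.8 CPM in HU-308 cells and 45.2 and 39.3 CPM in DMSO cells. Both HU-308 libraries were above both DMSO libraries, with means of 65.0 ± 3.19 CPM for HU-308 and 42.2 ± 4.22 CPM for DMSO (SD, n = 2 each). Its log2 fold change of 0.62 ± 0.15 (SE) had an edgeR p of 0.00590 before and 0.127 after adjustment, and 0.0665 after adjustment in DESeq2, so it did not pass. Kmt5a, the highest of the 3 by FPKM, had 146.9 and 118.3 CPM in HU-308 cells and 161.6 and 123.9 CPM in DMSO cells. The groups overlapped, and its log2 fold change was -0.11 ± 0.19 (SE). Kmt5b had 92.3 and 133.1 CPM in HU-308 cells and 90.6 and 132.4 CPM in DMSO cells, so that the libraries numbered 2 were alike, as were those numbered 1, and the log2 fold change was 0.01 ± 0.26 (SE).

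For H3K27, Ezh1 and Ezh2 are alternative catalytic subunits of PRC2: Ezh2 is the main one in dividing cells, and Ezh1 is more prominent in resting cells. Ezh1 (ENSMUSG00000006920, chr11:101191115-101226463) had 74.7 and 89.7 CPM in HU-308 cells and 51.3 and 58.1 CPM in DMSO cells. The groups did not overlap, with means of 82.2 ± 10.6 CPM for HU-308 and 54.7 ± 4.82 CPM for DMSO (SD, n = 2 each), and the log2 fold change of 0.59 ± 0.16 (SE) had an edgeR p of 0.0109 before and 0.152 after adjustment. Ezh2 had 375.7 and 313.7 CPM in HU-308 cells and 445.0 and 383.4 CPM in DMSO cells. Here both HU-308 libraries were below both DMSO libraries, and the log2 fold change of -0.27 ± 0.16 (SE) had an adjusted edgeR p of 0.423.

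The H3K4 group holds the MLL-type enzymes Kmt2a to Kmt2d and Setd1a and Setd1b, which work in COMPASS complexes, and Setd7, which adds a single methyl group. Kmt2a had the highest level by FPKM, with 518.1 and 491.5 CPM in HU-308 cells and 470.7 and 498.5 CPM in DMSO cells, overlapping groups and a log2 fold change of 0.06 ± 0.13 (SE). Its 95% interval ran from -0.26 to 0.38. Setd1b had the largest difference of the 7, with 94.6 and 108.8 CPM in HU-308 cells and 80.2 and 87.2 CPM in DMSO cells. The groups did not overlap, but the log2 fold change of 0.28 ± 0.14 (SE) had an adjusted edgeR p of 0.352. The log2 fold changes of the other 5 lay between -0.23 for Kmt2d and 0.04 for Kmt2b. Setd1a shares 51.8% of its annotated exon bases with a gene on the same strand that was given 4 reads in all, so the split of reads between them is uncertain.

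Of the enzymes of H3K9, Setdb1, which silences retroelements and restrains Th1 genes in Th2 cells, had 99.98 and 101.2 CPM in HU-308 cells and 121.6 and 102.3 CPM in DMSO cells. DMSO 1 alone stood above the other 3, which were close together, and the log2 fold change was -0.15 ± 0.14 (SE). Its relative Setdb2 was much lower, at 6.23 and 5.60 FPKM in HU-308 cells and 5.31 and 5.70 FPKM in DMSO cells, with overlapping groups. Setd2, the main enzyme for H3K36 trimethylation, had 233.3 and 205.4 CPM in HU-308 cells and 276.8 and 261.9 CPM in DMSO cells. Both HU-308 libraries were lower than both DMSO libraries, with a log2 fold change of -0.30 ± 0.14 (SE) and an adjusted edgeR p of 0.311.

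The remaining SET proteins act mainly on other substrates or have no clear enzyme activity. Setd4 (ENSMUSG00000022948, chr16:93583457-93604063), whose substrates are little studied, had 15.1 and 15.6 CPM in HU-308 cells and 10.3 and 10.3 CPM in DMSO cells, very close replicates and no overlap. Its log2 fold change was 0.57 ± 0.19 (SE), with an edgeR p of 0.0231 before and 0.200 after adjustment. Setd5 had 294.7 and 304.2 CPM in HU-308 cells and 364.8 and 373.4 CPM in DMSO cells, again without overlap, with a log2 fold change of -0.30 ± 0.13 (SE) and an edgeR p of 0.0551 before and 0.276 after adjustment. Kmt2e, which reads H3K4 methylation, was the highest of these by FPKM and had 202.1 and 226.0 CPM in HU-308 cells and 184.8 and 235.3 CPM in DMSO cells, with overlapping groups; 9.31% of its exon bases lie opposite Srpk2. Setd3, the actin histidine methyltransferase, and Setd6 had log2 fold changes of -0.05 and 0.00.

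**Figure D3:**
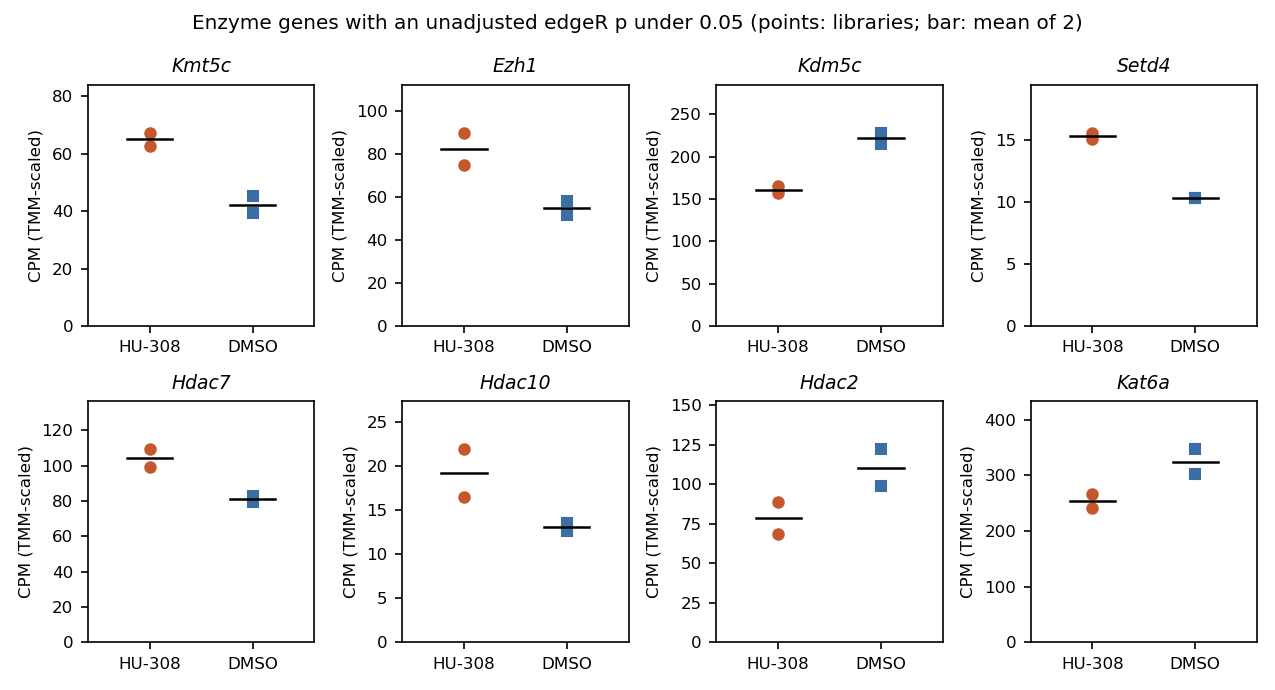
CPM of the 8 enzyme genes with an unadjusted edgeR p under 0.05 (y axis, scaled by TMM and starting at 0 in each panel), with points for libraries and bars for the mean of 2, HU-308 on the left and DMSO on the right. The panels were picked by that p from these same libraries, which favours groups without overlap, and in each panel the 2 groups do not overlap. Of all genes tested, 25.9% had both HU-308 libraries above both DMSO libraries and 25.4% below. Kmt5c, Ezh1, Setd4, Hdac7 and Hdac10 are higher with HU-308 and Kdm5c, Hdac2 and Kat6a lower, and none passed after adjustment in the unpaired edgeR test.

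Among the demethylases, 6 of 17 tested were on the higher side with HU-308 and 11 on the lower side, with a median log2 fold change of -0.07. With library size alone as the scale, which moved the median of all genes from 0.02 to 0.14, the split was 11 higher and 6 lower. The 4 Kdm5 genes, erasers of H3K4 trimethylation, were all on the lower side, with log2 fold changes between -0.46 and -0.07; with library size alone, or without DMSO 2, 2 of the 4 were on the higher side. Kdm5c (ENSMUSG00000025332, chrX:152233020-152274535) had 165.6 and 156.8 CPM in HU-308 cells and 215.0 and 228.3 CPM in DMSO cells. Both HU-308 libraries were lower, with means of 161.2 ± 6.24 CPM for HU-308 and 221.7 ± 9.41 CPM for DMSO (SD, n = 2 each), a log2 fold change of -0.46 ± 0.13 (SE) and an edgeR p of 0.0124 before and 0.158 after adjustment. Its Y-linked homologue Kdm5d had 55.9 and 61.0 CPM in HU-308 cells and 56.3 and 66.2 CPM in DMSO cells, and the groups overlapped. Reads of Kdm5d and 1 to 10 reads of Xist per library mark the cells as male in every library. Kdm5b had 80.6 and 92.8 CPM in HU-308 cells and 95.02 and 133.2 CPM in DMSO cells, and the DMSO libraries differed from each other by more than the HU-308 libraries did.

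The Kdm6 enzymes remove methyl groups from H3K27. Kdm6b, which is induced by T cell and inflammatory signals, had 26.97 and 50.5 CPM in HU-308 cells and 54.8 and 69.8 CPM in DMSO cells. The groups did not overlap, but the libraries of each group differed, most of all those with HU-308. Its log2 fold change of -0.68 ± 0.31 (SE) was the lowest of all 62 genes and had an adjusted edgeR p of 0.307; leaving out HU-308 1 gave -0.30 and leaving out HU-308 2 gave -1.21. The X-linked Kdm6a had 63.0 and 63.9 CPM in HU-308 cells and 61.9 and 62.5 CPM in DMSO cells, among the steadiest values here, with a 95% interval of -0.29 to 0.35 for the log2 fold change. Its Y-linked homologue Uty had 53.0 and 53.3 CPM in HU-308 cells and 58.4 and 65.5 CPM in DMSO cells. An antisense gene of Kdm6b, Kdm6bos, had 6 and 4 reads with HU-308 and 10 and 5 with DMSO.

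The amine oxidase demethylases act on mono- and dimethylated H3K4. Kdm1a, a part of the CoREST corepressor, had 81.6 and 88.1 CPM in HU-308 cells and 95.5 and 95.4 CPM in DMSO cells, and Kdm1b had 27.1 and 28.1 CPM in HU-308 cells and 22.6 and 20.3 CPM in DMSO cells. They leaned opposite ways without overlap, with log2 fold changes of -0.17 ± 0.13 and 0.37 ± 0.16 (SE) and adjusted edgeR p-values of 0.522 and 0.299; 9.19% of the exon bases of Kdm1b are shared with Dek.

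Kdm2a and Kdm2b bind unmethylated CpG islands and act on H3K36. Kdm2a had 252.1 and 277.9 CPM in HU-308 cells and 256.6 and 280.2 CPM in DMSO cells, with a log2 fold change of -0.02 ± 0.14 (SE). Kdm2b had 123.0 and 77.2 CPM in HU-308 cells and 127.0 and 61.8 CPM in DMSO cells, high in both libraries numbered 1 and low in both numbered 2. Its SE of 0.38 was the largest among the demethylases, around a log2 fold change of 0.09.

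Kdm3a and Kdm3b act on H3K9, and Kdm3a is a known hypoxia-responsive gene. Kdm3a had 272.6 and 181.3 CPM in HU-308 cells and 267.5 and 206.3 CPM in DMSO cells, again higher in the libraries numbered 1, with a log2 fold change of -0.06 ± 0.24 (SE). Kdm3b had 148.7 and 149.2 CPM in HU-308 cells and 131.5 and 123.2 CPM in DMSO cells, without overlap, with a log2 fold change of 0.23 ± 0.13 (SE) and an adjusted edgeR p of 0.393.

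The Kdm4 enzymes act on H3K9 and H3K36. Kdm4a, the highest of them by FPKM, had 117.2 and 170.2 CPM in HU-308 cells and 89.3 and 132.9 CPM in DMSO cells, and here the libraries numbered 2 were the higher ones in both groups. Kdm4b had 39.0 and 49.5 CPM in HU-308 cells and 35.4 and 32.9 CPM in DMSO cells, without overlap. Both had a log2 fold change of 0.37, with an SE of 0.26 for Kdm4a and 0.17 for Kdm4b and adjusted edgeR p-values of 0.485 and 0.315. Kdm4d was too low to test, with 2 and 6 reads in HU-308 libraries and 2 and 3 in DMSO libraries. Scaled to depth this was a ratio of 1.75, with a 95% counting interval of 0.505 to 6.80 that covers counting error only.

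Kdm7a, which acts on H3K9 and H3K27, had 49.9 and 52.7 CPM in HU-308 cells and 52.2 and 56.1 CPM in DMSO cells, with overlapping groups. Kdm8, a JmjC protein also known as Jmjd5, had 11.9 and 11.7 CPM in HU-308 cells and 16.6 and 11.3 CPM in DMSO cells, where DMSO 1 alone stood above the other 3. Leaving out DMSO 1 turned its log2 fold change of -0.24 to 0.04.

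The 8 Kat genes divided evenly, 4 on the higher and 4 on the lower side, with a median log2 fold change of -0.01 (5 and 3, and 0.11, with library size alone). Kat6a, the MYST acetyltransferase of H3 with the highest FPKM of the group, had 242.0 and 265.7 CPM in HU-308 cells and 302.8 and 346.7 CPM in DMSO cells (ENSMUSG00000031540, chr8:22859535-22943259). Both HU-308 libraries were lower, and the log2 fold change of -0.36 ± 0.14 (SE) had an edgeR p of 0.0482 before and 0.263 after adjustment. Its paralogue Kat6b was also lower in both HU-308 libraries, at 35.3 and 42.3 CPM against 46.2 and 44.1 CPM in DMSO cells, with an adjusted edgeR p of 0.496. Kat2a, the catalytic subunit of SAGA, had 52.2 and 39.9 CPM in HU-308 cells and 71.9 and 45.5 CPM in DMSO cells. DMSO 1 was far above the other libraries, and without it the log2 fold change of -0.35 became -0.0019. Its paralogue Kat2b had a log2 fold change of 0.10 ± 0.13 (SE), Kat5, the catalytic subunit of TIP60 complexes, 0.20 ± 0.16 (SE), Kat7, a partner of Brpf and Jade scaffolds, 0.08 ± 0.14 (SE), and Kat8, which acetylates H4K16, 0.22 ± 0.22 (SE). For Kat5, 12.1% of its exon bases lie opposite Rnaseh2c, and the strand setting of the counting is not given in the sources used here.

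Of the HDAC genes, 9 of 10 tested were on the higher side with HU-308 and 1, Hdac2, on the lower side, with a median log2 fold change of 0.2041. The split was the same under the other scalings, which could hardly have changed it. Their median was 0.3221 with library size alone and 0.1966 with RLE factors. Over the same 10 genes, 7 to 9 were on the higher side when a library was left out: Hdac1 and Hdac5 crossed 0 without DMSO 2, Hdac4 without DMSO 1 and Hdac1 without HU-308 1. Hdac1 and Hdac2 are the class I pair that forms the catalytic core of the SIN3, NuRD and CoREST corepressors. Hdac1 had 190.2 and 161.3 CPM in HU-308 cells and 182.1 and 162.3 CPM in DMSO cells, so that the groups overlapped around a log2 fold change of 0.03 ± 0.15 (SE). Hdac2 (ENSMUSG00000019777, chr10:36974544-37001889) had 88.6 and 68.2 CPM in HU-308 cells and 122.0 and 98.6 CPM in DMSO cells. Both HU-308 libraries were lower, and the log2 fold change of -0.49 ± 0.19 (SE) had an edgeR p of 0.0432 before and 0.251 after adjustment. Hdac3, the enzyme of the NCoR and SMRT corepressors, differed by a log2 fold change of 0.11 ± 0.15 (SE), and Hdac8, which deacetylates cohesin, one of 0.43 ± 0.25 (SE) at a low level of 8.61 and 10.1 CPM in HU-308 cells and 7.85 and 6.02 CPM in DMSO cells.

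The class IIa enzymes Hdac4, Hdac5, Hdac7 and Hdac9 are shuttled out of the nucleus by phosphorylation and bind MEF2 factors, and Hdac7 is abundant in T cells. By FPKM Hdac7 was the highest of them, and it had 99.4 and 109.3 CPM in HU-308 cells and 79.4 and 83.1 CPM in DMSO cells (ENSMUSG00000022475, chr15:97792664-97844502). The groups did not overlap, and the log2 fold change of 0.36 ± 0.13 (SE) had an edgeR p of 0.0371 before and 0.238 after adjustment. Hdac4 and Hdac5 had overlapping groups and log2 fold changes of 0.14 and 0.17. Hdac9 was near its detection limit, with 6 and 14 reads in HU-308 libraries and 2 and 1 in DMSO libraries, and was not tested. The depth-scaled ratio of 7.30 had a 95% counting interval of 2.16 to 38.4, which covers counting error only and not the spread between libraries; it was picked out after its values were seen.

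In class IIb, Hdac10, a polyamine deacetylase, had 21.9 and 16.5 CPM in HU-308 cells and 13.6 and 12.6 CPM in DMSO cells (ENSMUSG00000062906, chr15:89123307-89128700). The groups did not overlap, though HU-308 1 stood well above HU-308 2, and the log2 fold change of 0.55 ± 0.21 (SE) had an edgeR p of 0.0430 before and 0.25 after adjustment. Hdac6, the cytoplasmic tubulin deacetylase and highest of class IIb by FPKM, had 47.7 and 48.7 CPM in HU-308 cells and 39.7 and 41.9 CPM in DMSO cells. Its groups did not overlap either, with a log2 fold change of 0.24 ± 0.14 (SE) and an adjusted edgeR p of 0.395. Hdac11, the sole class IV enzyme, had the highest log2 fold change of the 62 genes, 0.90 ± 0.48 (SE), on only 1.247 and 1.01 CPM in HU-308 cells and 0.692 and 0.511 CPM in DMSO cells, and its 95% interval ran from -0.28 to 2.09.

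All 7 sirtuins were on the higher side with HU-308, with a median log2 fold change of 0.28 and a range of 0.03 to 0.54, and 0 of the 7 had an unadjusted edgeR p under 0.05. Both HU-308 libraries lay above both DMSO libraries for 3 of them, Sirt4, Sirt5 and Sirt6, against 25.9% of all genes. Summed over the family the level was 61.9 and 67.9 FPKM in HU-308 cells and 51.9 and 58.2 FPKM in DMSO cells, without overlap, and the family took 0.0304% and 0.0338% of counts with HU-308 and 0.0238% and 0.0264% with DMSO. The sum was not tested, and 25.9% of all single genes lay in this order. Its largest part was Sirt7, at 21.6 and 27.7 FPKM in HU-308 cells and 17.9 and 22.5 FPKM in DMSO cells, which overlapped. Sirt7, the nucleolar H3K18 deacetylase and highest of the family by FPKM, had 111.5 and 144.8 CPM in HU-308 cells and 92.4 and 116.4 CPM in DMSO cells, overlapping groups and a log2 fold change of 0.30 ± 0.19 (SE). Sirt6, which deacetylates H3K9, had 29.6 and 30.5 CPM in HU-308 cells and 24.6 and 25.02 CPM in DMSO cells, with close replicates and a log2 fold change of 0.28 ± 0.15 (SE). Sirt4, a mitochondrial enzyme, had the largest difference, a log2 fold change of 0.54 ± 0.34 (SE), on 5.52 and 6.22 CPM in HU-308 cells and 3.0 and 5.05 CPM in DMSO cells. Sirt1, the nuclear member best known in T cells, had 67.3 and 56.0 CPM in HU-308 cells and 62.1 and 52.2 CPM in DMSO cells, so that the groups overlapped. All 7 kept their side with library size alone or with RLE factors, but these scalings could hardly have moved a sirtuin below 0. Library size alone raised their median log2 fold change from 0.2765 to 0.3948, and RLE factors moved it to 0.2691. Without HU-308 1, or without DMSO 2, 5 of the 7 were on the higher side.

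Ratios between relatives within a library need no scaling between libraries; the pairs were chosen after the values were seen, and with 2 libraries a group the smallest two-sided exact permutation p is 0.333, so none was tested. Ezh2 over Ezh1, by FPKM, was 5.61 and 3.90 in HU-308 cells and 9.67 and 7.35 in DMSO cells. Hdac1 over Hdac2 was 2.79 and 3.07 in HU-308 cells and 1.94 and 2.14 in DMSO cells. Kmt5a over Kmt5c was 1.65 and 1.42 in HU-308 cells and 2.69 and 2.38 in DMSO cells. In each of these 3 pairs the groups did not overlap, and they did not for Ezh1, Ezh2, Hdac2 or Kmt5c as single genes. Of all single genes tested, 25.9% had both HU-308 libraries above both DMSO libraries and 25.4% below. No such share was counted for ratios of other pairs. Kdm5c over Kdm5d was 6.32 and 5.48 in HU-308 cells and 8.14 and 7.35 in DMSO cells, and Kdm6a over Kdm6b was 1.94 and 1.05 in HU-308 cells and 0.938 and 0.743 in DMSO cells. Kat6a over Kat6b was 12.5 and 11.5 in HU-308 cells and 12.0 and 14.4 in DMSO cells, with overlap.

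**Figure D4:**
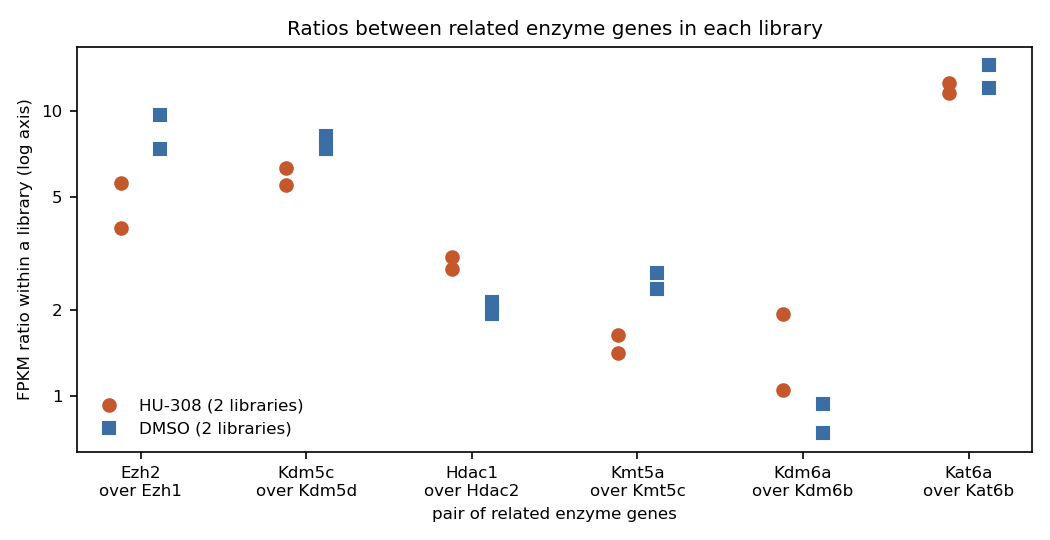
Ratio of FPKM between 6 pairs of related enzyme genes in each library (y axis, log scale), with circles for the 2 HU-308 libraries and squares for the 2 DMSO libraries. The pairs were chosen after the values were seen. Ezh2 over Ezh1, Kdm5c over Kdm5d, Hdac1 over Hdac2, Kmt5a over Kmt5c and Kdm6a over Kdm6b do not overlap between groups. Kat6a over Kat6b overlaps. Ezh1, Ezh2, Kdm5c, Hdac2, Kmt5c, Kdm6a and Kdm6b do not overlap as single genes either. Of all genes tested, 25.9% had both HU-308 libraries above both DMSO libraries and 25.4% below.

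Genes at large, the enzyme genes among them, varied between libraries of the same treatment along the library number. The deviation of a library from its group mean had the same sign in the HU-308 and DMSO libraries of the same number for 47 of the 62 genes (75.8%), against 70.9% of all genes. Kmt5b, Kdm4a, Kdm2b and Kdm3a, given above, are the plainest cases. Mitochondrial transcripts took 1.70% of counts in HU-308 1 and 1.37% in HU-308 2, against 2.25% in DMSO 1 and 1.75% in DMSO 2. Their share was thus higher in number 1 within each group, and lower with HU-308 than with DMSO at each number. Its part in the differences along the number, and in those between the groups, was not tested. No label says what the numbers share.

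In the authors' deposited table of their own comparison, all 64 genes have a value. There, 0 had an adjusted p under 0.05, the smallest being 0.0996, against 3.13% of the 23290 genes with a value in the authors' deposited table. An unadjusted p under 0.05 was given in the authors' deposited table for 5 of the 64 (7.81%), against 9.27% of all genes there. The authors' deposited table gives log2 fold changes of 0.58 for Ezh1 and -0.27 for Ezh2.

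Partner subunits and enzymes outside the rule were counted in lists chosen with earlier results of these data known. No gene of the 10 chromatin lists passed in the unpaired edgeR test, while DESeq2 called 6 of the 156 tested (3.85%, against 5.68% of all genes). PRC2 subunits had a median log2 fold change of -0.07 over 10 tested genes (0.04 with library size alone as the scale), with 4 on the higher side, 6 on the lower side and 0 at an unadjusted edgeR p under 0.05. Suz12, which holds the complex together, had 345.9 and 292.4 CPM in HU-308 cells and 453.1 and 334.0 CPM in DMSO cells, and the groups overlapped. COMPASS subunits had a median of -0.14 over 11 genes (-0.02 with library size alone), and Ncoa6, a part of the Kmt2c and Kmt2d complexes, had 145.4 and 138.8 CPM in HU-308 cells and 205.3 and 181.6 CPM in DMSO cells.

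The arginine methyltransferase list, which counts the cofactor Wdr77 beside the enzymes, stood lowest of the 10, with a median log2 fold change of -0.69 over 9 tested genes, against 0.02 for all genes. Without DMSO 1 its median was -0.45, and with library size alone it was -0.57. Of the 9, 7 were on the lower side with HU-308 under all 3 scalings. Each of the 7 had a log2 fold change of -0.386 or below, which the scaling could hardly have moved across 0. Of the 7, 5 had an unadjusted edgeR p under 0.05, and 1 of the 2 on the higher side, Prmt2, was under 0.05 too. Over all genes the same threshold was passed by 9.97% on the lower side and 8.79% on the higher side. Wdr77, the obligate partner of Prmt5 in symmetric dimethylation of arginine, had 22.8 and 20.1 CPM in HU-308 cells and 50.3 and 41.4 CPM in DMSO cells. Both HU-308 libraries were below both DMSO libraries, and the log2 fold change of -1.10 ± 0.18 (SE) had an adjusted p of 0.0796 in edgeR and 4.26e-04 in DESeq2. Prmt5 itself had 75.3 and 62.9 CPM in HU-308 cells and 131.7 and 100.7 CPM in DMSO cells, with a log2 fold change of -0.75 ± 0.19 (SE) and an adjusted p of 0.138 in edgeR and 0.0294 in DESeq2. Prmt1, which makes most asymmetric dimethylation, had 78.1 and 59.2 CPM in HU-308 cells and 112.8 and 70.7 CPM in DMSO cells, with overlapping groups. Prmt2 had 24.2 and 19.8 CPM in HU-308 cells and 13.1 and 14.0 CPM in DMSO cells, with an adjusted edgeR p of 0.153.

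The other lysine methyltransferases had a median log2 fold change of -0.19 over 17 genes (-0.07 with library size alone), with 5 on the higher side and 12 on the lower. Smyd5 had 36.7 and 25.1 CPM in HU-308 cells and 76.0 and 53.5 CPM in DMSO cells, with a log2 fold change of -1.07 ± 0.26 (SE) and an adjusted p of 0.132 in edgeR and 0.00732 in DESeq2. Ehmt2, an H3K9 dimethyltransferase, went the other way, at 321.7 and 353.0 CPM in HU-308 cells and 251.6 and 238.4 CPM in DMSO cells, with an adjusted edgeR p of 0.165. Other JmjC proteins had a median of -0.20 over 12 genes (-0.08 with library size alone). Acetyltransferases without a Kat name had a median of -0.04 over 11 genes (0.08 with library size alone), and Ep300, the coactivator, had 337.8 and 339.5 CPM in HU-308 cells and 426.2 and 422.5 CPM in DMSO cells, while its paralogue Crebbp had 108.8 and 125.9 CPM in HU-308 cells and 109.7 and 130.8 CPM in DMSO cells. The groups overlapped for Crebbp and not for Ep300, whose adjusted edgeR p was 0.249.

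Subunits of acetyltransferase complexes had a median log2 fold change of 0.09 over 33 genes (0.20 with library size alone). HDAC corepressor subunits had one of 0.11 over 27 (0.23 with library size alone). For readers of acetyl and methyl marks it was 0.03 over 19 (0.15 with library size alone), and for DNA methylation enzymes -0.02 over 7 (0.10). Jade2, a scaffold of Kat7, had 81.7 and 101.7 CPM in HU-308 cells and 56.0 and 56.6 CPM in DMSO cells, with an adjusted p of 0.119 in edgeR and 0.0295 in DESeq2. Cbx2, a Polycomb reader of H3K27 methylation, had 32.5 and 33.6 CPM in HU-308 cells and 19.9 and 16.6 CPM in DMSO cells, with an adjusted p of 0.104 in edgeR and 0.0147 in DESeq2. Tet1, which oxidises methylated cytosine, had 31.2 and 45.0 CPM in HU-308 cells and 21.8 and 19.9 CPM in DMSO cells, with an adjusted p of 0.142 in edgeR and 0.0288 in DESeq2. All 3 were higher in both HU-308 libraries than in both DMSO libraries.

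**Figure D5:**
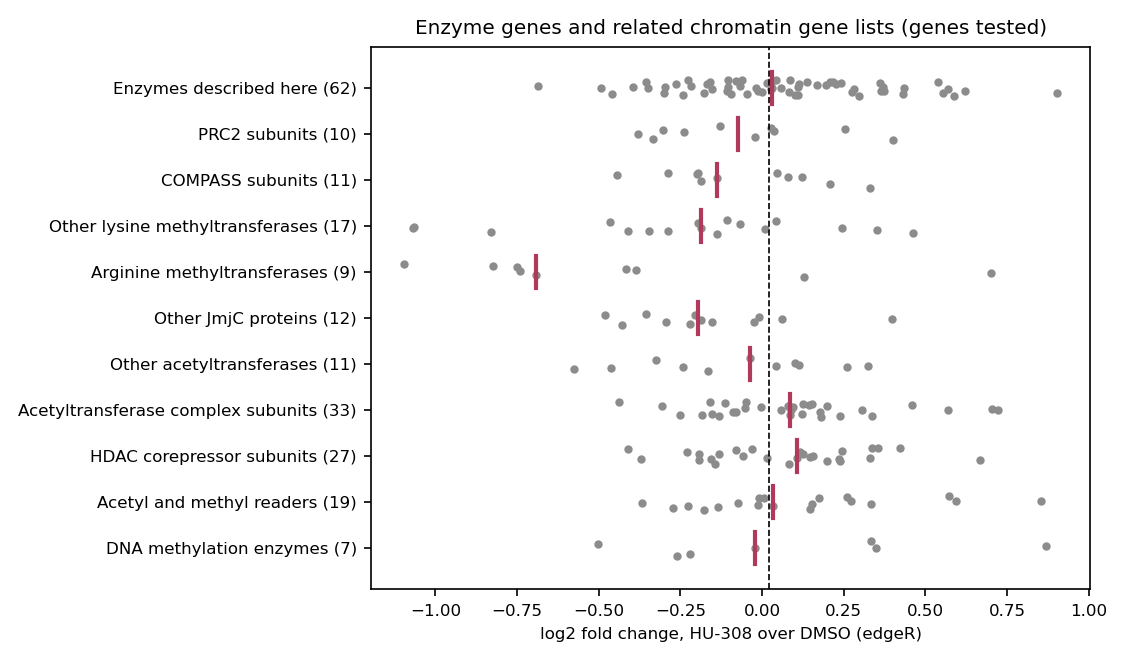
Log2 fold change of each tested gene (x axis, HU-308 over DMSO, edgeR) for the 62 enzyme genes and 10 related lists, with a red bar at the median of each and a dashed line at the median of all genes, 0.02. The arginine methyltransferases have the lowest median, -0.69, and the medians of the other lists lie between -0.20 and 0.11.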

How the data were processed

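Bulk RNA of cultured mouse Th2 cells was sequenced in 4 libraries, prepared with a SMARTER mRNA kit after TRIzol extraction, per the labels' protocols. Per the submitters' processing notes the build was GRCm38 (mm10) and the tools included RSEM 1.3.1, Bowtie2 2.3.4.3 and DESeq2 1.4.5, with no step named for each. Annotation release and strand setting are not given in the sources used here. The read counts per gene are whole and unscaled for each library, per the file headers and values, and may be rounded RSEM estimates. The FPKM values, per the file headers, were made by the authors. The signal columns are the authors' scaled mean counts of each group. The deposited log2 fold change is the authors' own, with HU-308 on top, and the deposited p-value columns hold their raw and adjusted p.

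Groups follow the labels, and the 2 HU-308 libraries were set against the 2 DMSO libraries without pairing. Testing of the counts used edgeR 4.0.16 under R 4.3.3: filterByExpr (minimum count 10, minimum total 15), TMM scaling, the quasi-likelihood F test with 2 residual degrees of freedom, and Benjamini-Hochberg adjustment over all 14316 genes at 0.05. The common coefficient of variation that edgeR estimated between libraries of a group was 19.8%. CPM values are TMM-scaled. The SE is the size of the log2 fold change over the square root of F, and 95% intervals use 5.77 degrees of freedom. The steps were also tested on simulated data. Alternatives were RLE factors, library size only, no filter, at least 1 CPM in 2 libraries, protein-coding genes only, DESeq2 1.42.0, limma-voom and limma on log2(FPKM + 1) or log2(FPKM + 0.1) (limma 3.58.1), a replicate block and each library left out.

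The enzyme genes and all lists were chosen with earlier results of these data known. Genes past the adjusted or the unadjusted p of 0.05 were named with full values. So were the highest by FPKM and the largest fold change of each role group, and sex-linked relatives. In the related lists, the 6 genes that DESeq2 called were named. Others there were picked as known partners or for their values, not always those of largest change. Other genes were named after their values were seen. Of the 64 genes, GENCODE M21 lists 64, 62 with the same coordinates; 20 share exon bases with a gene that has reads, 2 of them over 10% of their bases. Rows of 5 pseudogenes and antisense genes with matching names were left out. Plots came from matplotlib 3.10.9 (Python 3.11.15).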

Additional observations from a re-analysis of the deposited data

How the results depend on the processing

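The count of 0 enzyme genes past the adjusted threshold was the same under every alternative run except the replicate block, which adds the library number to the edgeR fit and called 21 of 62 (11 higher and 10 lower with HU-308; 33.9%, against 33.8% or 4839 of all genes). The numbers were not taken to pair the libraries: deviations of same-numbered libraries correlated across 14316 genes (r = 0.574), but there are only 2 pairs and no label says what a number shares. Over all genes the 45 calls became 20 with library size only, 561 with no filter, 28 with at least 1 CPM, 813 with DESeq2, 55 with edgeR's adjusted-deviance test (chosen after seeing the data), and 37 to 337 when a library was left out. Limma on log2(FPKM + 1) and on log2(FPKM + 0.1) called 0, with 2625 and 2629 genes at an unadjusted p under 0.05. The median log2 fold change of the enzyme genes, 0.03, was 0.15 with library size only, 0.0413 with no filter and 0.0077 to 0.0717 when a library was left out. Scaling by library size only shifted the median of all genes to 0.14, from 0.02, and took 10 of the 62 enzyme genes from below 0 to above it, among them 5 named by rule: Kmt5a (0.0119), Kdm2a (0.10), Kdm3a (0.0566), Kdm5d (0.0505) and Kdm7a (0.04). When a library was left out, 20 of the 62 (32.3%) crossed 0 at least once. Among those named by rule, Kmt2a gave -0.0009 to 0.10, Kmt5a -0.28 to 0.0791, Kmt2e -0.16 to 0.21, Kdm2a -0.10 to 0.0522, Kdm2b -0.34 to 0.68, Kdm3a -0.38 to 0.20, Kdm5d -0.20 to 0.0554, Kdm8 -0.49 to 0.0422 and Hdac1 -0.0925 to 0.14. The other 11 were Hdac4, Hdac5, Kat7, Kat8, Kdm5a, Kmt2b, Kmt5b, Setd1a, Setd6, Sirt1 and Sirt3. The causes were not tested. With 2 libraries a group, the median SE of a log2 fold change among the enzyme genes was 0.164.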
